A study of Mus musculus with 8 samples.

Results

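The results below concern 9 genes through which the cornea is known to restrain immune cells: the death ligand Fasl and its receptor Fas, the death ligand Tnfsf10 (TRAIL) and its receptor Tnfrsf10b (DR5), the checkpoint ligands Cd274 (PD-L1) and Pdcd1lg2 (PD-L2), the galectin Lgals9, the enzyme Ido1 and the inhibitory surface protein Cd200. They were picked by name for this role, with earlier results of these data known, and all 9 were found among the 54532 genes of the table. Total RNA was sequenced from 4 naive corneas of BALB/c mice (BALB/cN in the methods of the study) and 4 naive corneas of C57BL/6N mice. All donors of these corneas were untreated male mice of inbred strains, and no processing batch is given in the sources used here. The methods give a young adult age for phenotyped mice of the parental strains and no separate age for the sequenced mice. The sources do not say that the corneas of a strain came from separate animals or litters, so p-values measure the spread between these corneas. The comparison asks which of the 9 genes differ in transcript level between the uninflamed corneas of the 2 strains.

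The cornea is an immune privileged tissue: its cells carry ligands that kill or silence incoming leukocytes, so that inflammation does not cloud the light path. Death ligands of the TNF family bind receptors with a death domain, which recruit the adaptor FADD and caspase-8, whereas decoy receptors bind the ligand without passing on a full signal. PD-L1 and PD-L2 engage PD-1 on T cells, galectin-9 engages TIM-3, CD200 engages a receptor on myeloid cells, and IDO1 degrades the tryptophan that dividing T cells need. Interferons are textbook inducers of TRAIL, PD-L1, galectin-9 and IDO1 in many cells.

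The deposited values are regularized log (rlog) values, which are on a log2 scale and normalized for library size by the authors. This scale shrinks weak genes towards their own average, so that their rlog differences are smaller than the log2 fold changes. Read counts were therefore also recovered by inverting the transformation, a step chosen after seeing the data. In genes left out of the fit of its constants, 94.7% of the recovered values of 12712 genes with means up to 1000 reads lay within 0.1 of a whole number, where evenly spread values would give 20%. From means of 1000 to 5000 reads 67.8% did so, and above 5000 only 24.4%. The counts given for genes with means above 1000 reads, among them Cd274 and Lgals9, are thus near and not exact. The recovered libraries held between 29700000 and 41200000 reads. "Normalized reads" below are recovered reads divided by the size factor of the library, and differences are BALB/c minus C57BL/6N throughout. Limits given for a count of 0 cover counting error only, because PCR copies were not removed by molecular identifiers.

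Corneas of a strain were not alike in marker transcripts of other tissues. Summed normalized reads of 8 keratocyte markers ran from 99525 to 331569 in BALB/c and from 51006 to 443155 in C57BL/6N corneas, with low values in BALB/c replicate 2 and C57BL/6N replicates 3 and 4. Lens and pigment cell markers were highest in BALB/c replicates 1 and 4. The 6 epithelial markers, led by the corneal keratin Krt12, were abundant in all 8 corneas, none was called, and their sum ran from 1610916 to 1933713 reads. Of the 5 conjunctival markers 4 were lower in BALB/c, among them the mucosal keratin Krt13 with 1562 ± 221 (SD, n = 4) against 15965 ± 2697 (SD, n = 4) normalized reads. Another of the 4, Muc4, had 629971 ± 103610 against 970424 ± 96423, not far from the means of Krt12 (857862 and 860427). Muc4 supplied most reads of the list and cannot be taken as a marker of conjunctiva alone. The fifth, the goblet cell mucin Muc5ac, went the other way, with 260 ± 246 normalized reads in BALB/c against 1.52 ± 1.95 in C57BL/6N and no overlap between the strains, but was not called (rlog difference 2.19, adjusted p = 0.0225 from limma). The part of conjunctival transcripts in the results below was not tested. In these bulk samples, fewer cells of a type and less RNA per cell cannot be told apart.

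Of the 9 genes, 7 reached the minimum mean rlog of 0 and were tested, and 3 were called, meaning an adjusted p of at most 0.01 (limma with Benjamini-Hochberg adjustment over 25402 genes). These were Tnfsf10, Lgals9 and Cd274, all higher in BALB/c. Over all genes tested, 5.74% passed this threshold, 2.83% as higher and 2.91% as lower in BALB/c. Because the 9 genes were picked with earlier results known, these shares are no evidence about the group. The median rlog difference was 0.40 over the 7 tested genes and 0.0077 over all genes tested. In the same 3 genes every BALB/c cornea lay above every C57BL/6N cornea, as it did in 8.75% of all genes tested, with 9.58% the other way round. A limma voom fit on the recovered counts called the same 3 genes, against 5.61% of all genes (2.7% higher and 2.91% lower in BALB/c). At an adjusted p of 0.05 there were again 3, against 11.2% of all genes. Fas, Fasl, Tnfrsf10b and Cd200 did not pass, and Pdcd1lg2 and Ido1 were too weak to test.

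**Figure D1:**
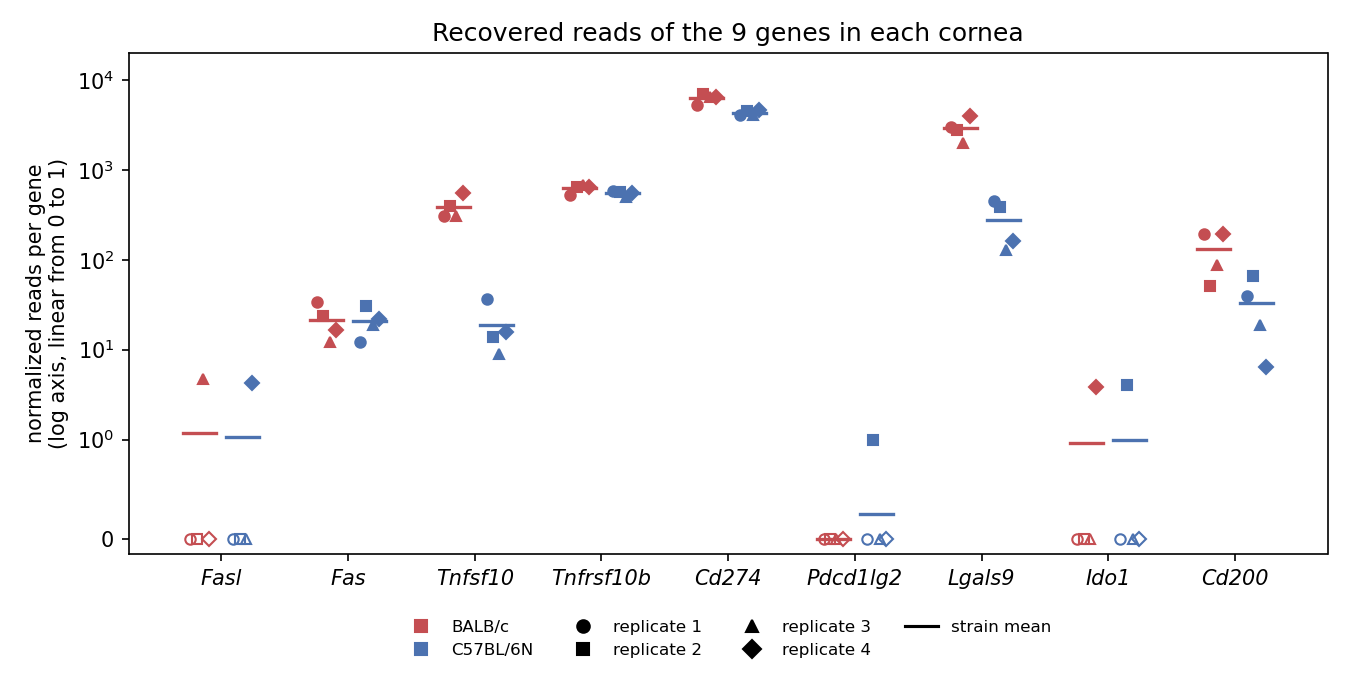
Normalized reads (y axis, logarithmic above 1 and linear from 0 to 1) of the 9 genes (x axis) in each BALB/c (red) and C57BL/6N (blue) cornea, with replicates by symbol, open symbols for 0 reads and bars for the strain means. The points of the strains lie apart for Tnfsf10, Cd274 and Lgals9, and Pdcd1lg2 shows a single read in C57BL/6N replicate 2.

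Because Tnfsf10, Lgals9 and Cd274 were called in the same direction, the sequences before their starts are shown, in GRCm38.p6 coordinates from RefSeq, which held 7 of the 9 genes. They run 5′ to 3′ on the strand of the gene, and capitals mark a match, on either strand, to a form of the interferon-stimulated response element. The first form is GAAA, any 2 bases and GAAA, and the second, shifted form is AAA, any 2 bases and GAAAC. The stretches are chr3:27316827-27317032 (plus strand) for Tnfsf10, chr11:78984947-78985174 (minus strand) for Lgals9 and chr19:29367188-29367437 (plus strand) for Cd274, and that of Tnfsf10 reaches a few bases past the start of the gene in the annotation used for the other positions.
Tnfsf10: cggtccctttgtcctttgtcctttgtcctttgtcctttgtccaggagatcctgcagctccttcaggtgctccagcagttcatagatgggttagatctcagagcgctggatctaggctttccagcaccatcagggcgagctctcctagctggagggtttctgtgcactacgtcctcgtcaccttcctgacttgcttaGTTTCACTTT
Lgals9: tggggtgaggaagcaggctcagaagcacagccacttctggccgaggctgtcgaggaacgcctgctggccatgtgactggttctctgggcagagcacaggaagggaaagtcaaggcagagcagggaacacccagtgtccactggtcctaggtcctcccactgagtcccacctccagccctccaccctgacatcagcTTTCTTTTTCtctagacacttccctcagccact
Cd274: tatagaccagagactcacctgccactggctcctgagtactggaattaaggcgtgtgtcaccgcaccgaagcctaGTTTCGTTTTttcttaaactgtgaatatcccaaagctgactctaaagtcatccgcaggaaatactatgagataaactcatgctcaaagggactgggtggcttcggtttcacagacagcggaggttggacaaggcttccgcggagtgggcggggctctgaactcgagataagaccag

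Each of these 3 genes held at least 1 form of the element in the window from 250 bases before to 50 bases after the RefSeq start. Over all 32851 promoters of the table, 3.44% held the first form, 2.24% held the shifted form and 4.8% held at least 1 of them, and the forms can overlap. Lgals9 held further matches after its start and Tnfsf10 another match to the shifted form before its RefSeq start, outside the stretches printed. Neither form was found in the windows of Fas, Fasl, Pdcd1lg2 and Cd200, and that of Fas held a TTCNNNGAA match, the gamma-interferon activated site, as did 8.3% of promoters. These motifs were chosen after the data were seen, and a match is a description and not a binding site.

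Levels can be compared between genes only per length, here as normalized reads per kilobase of exon. In BALB/c corneas Cd274 (1735 ± 207, SD, n = 4) and Lgals9 (1376 ± 391) stood highest, above 96.1% and 94.6% of 16006 tested protein-coding genes, and their ranges overlapped. Tnfrsf10b (115 ± 12.3), Tnfsf10 (74 ± 21.9) and Cd200 (40 ± 22.4) followed with ranges that overlapped from each gene to the next. In C57BL/6N corneas Cd274 (1194 ± 74.9) again stood highest, above 93.4% of coding genes and apart from the next gene. Lgals9 there (131 ± 74.9) overlapped with Tnfrsf10b (101 ± 6.14), at a level above 53.4% of coding genes. Fas (10.2 ± 3.78), Cd200 (9.86 ± 7.85) and Tnfsf10 (3.58 ± 2.33) came next in C57BL/6N, each overlapping its neighbour in the order. In both strains Fasl, Ido1 and Pdcd1lg2 were lowest, each with a mean of under 1 read per kilobase, and could not be ordered. The range of Ido1 in C57BL/6N reached into that of Tnfsf10.

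Tnfsf10 (ENSMUSG00000039304, chr3:27317028-27342427, plus strand, GRCm38) encodes TRAIL, a membrane ligand that kills cells bearing death receptors. Its normalized reads were 304, 397, 308 and 550 in BALB/c replicates 1 to 4 and 36.7, 14, 8.85 and 15.9 in C57BL/6N replicates 1 to 4. The lowest BALB/c cornea was far above the highest C57BL/6N cornea, and the C57BL/6N libraries held 7 to 36 reads of the gene. The means were 390 ± 115 and 18.8 ± 12.3 (SD, n = 4 each), a 20.7-fold higher level in BALB/c. On the rlog scale the values were 7.95 ± 0.28 and 5.66 ± 0.23, which gives 2.30 for the difference (SE 0.161, limma adjusted p = 1.82e-05). An exact two-sided permutation test gave p = 0.0286, which no split of 4 against 4 can undercut. The limma voom fit gave a log2 ratio of 4.43 (standard error 0.549, adjusted p = 0.000677), with a 95% interval of 9.24 to 50.6-fold.

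Tnfrsf10b (ENSMUSG00000022074, chr14:69767472-69784411, plus strand) encodes DR5, the death receptor for TRAIL in the mouse. It had 531, 643, 687 and 642 normalized reads in the BALB/c corneas and 586, 561, 506 and 550 in the C57BL/6N corneas. The ranges overlapped through BALB/c replicate 1. The rlog difference was 0.13 (95% interval -0.036 to 0.29, adjusted p = 0.335 from limma). Within a cornea, the ligand had 0.448 to 0.857 times the reads of its receptor in BALB/c and 0.0175 to 0.0626 times in C57BL/6N, counted per gene and not per length. The rlog value of Tnfsf10 minus that of Tnfrsf10b differed by 2.17 between the strains (exact two-sided permutation test, p = 0.0286, 0.0429 after adjustment over 3 pairs). This adjusted value needs all 8 corneas, since with any cornea left out the smallest p allowed rises to 0.0571 and the adjusted value to 0.0857.

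The receptors listed as decoys for TRAIL showed no called difference, with 0 of 4 genes called by limma, against 5.74% of all genes tested. At an adjusted p of 0.05 there were 0, against 11.2%. Tnfrsf11b, the soluble decoy osteoprotegerin, had 434 ± 57.4 normalized reads in BALB/c and 397 ± 59.2 in C57BL/6N. Tnfrsf22 had 159 ± 28.6 and 146 ± 42, and Tnfrsf23 had 72.9 ± 13.2 and 53.8 ± 11.8 (adjusted p = 0.756 and 0.303 from limma). Tnfrsf22 and Tnfrsf23 are related membrane decoys of the mouse, so reads shared between them could have been split or lost in counting.

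Fasl (ENSMUSG00000000817, chr1:161780689-161788495, minus strand), the Fas ligand known for deleting leukocytes that enter the eye, was at the floor of the assay. Reads were recovered in 2 corneas only, 5 in BALB/c replicate 3 and 4 in C57BL/6N replicate 4. The other corneas had 0 reads, which allows up to 3 reads in each of these libraries. The rlog difference was 0.0019 (95% interval -0.057 to 0.061, adjusted p = 0.976 from limma), and no ratio between the strains can be given at this depth. Its receptor Fas (ENSMUSG00000024778, chr19:34290666-34327772, plus strand) had 34.3, 23.6, 12.2 and 16.5 normalized reads in BALB/c and 12.2, 31, 19 and 22.2 in C57BL/6N. The strains overlapped fully, with means of 21.6 ± 9.64 and 21.1 ± 7.79. The rlog difference of Fas was 0.0052 (95% interval -0.20 to 0.21, adjusted p = 0.983 from limma), and the interval of the ratio of recovered counts reached from 0.507 to 2.02. The rlog value of Fasl minus that of Fas differed by -0.0032 between the strains (adjusted exact permutation p = 0.971).

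Downstream of these receptors, 20 genes of death receptor signalling were examined and 19 tested. Of these 0 were higher and 1 was lower in BALB/c, against 2.83% and 2.91% of all genes tested. The median rlog difference was -0.0034. The lower gene was Bid, the BH3-only protein that caspase-8 cleaves to pass the signal to mitochondria, with 131 ± 16.6 normalized reads in BALB/c and 301 ± 52.8 in C57BL/6N (rlog difference -0.71, adjusted p = 0.00148 from limma). At an adjusted p of 0.05 there were 3 genes, against 11.2% of all genes tested. The ligand Tnf (398 ± 30.4 against 565 ± 55.7, adjusted p = 0.0137 from limma) and Ripk1 (1609 ± 52.6 against 1926 ± 111, adjusted p = 0.0451) were then lower too. The adaptor Fadd had 916 ± 112 and 897 ± 81.6, the initiator caspase Casp8 1508 ± 140 and 1511 ± 99.7, and its inhibitor Cflar 2975 ± 149 and 2945 ± 195 normalized reads. Each of these values differed between the strains by less than the spread between corneas.

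Cd274 (ENSMUSG00000016496, chr19:29367455-29388095, plus strand) encodes PD-L1, the ligand through which corneal cells restrain T cells bearing PD-1. Its rlog values were 12.35, 12.67, 12.57 and 12.58 in BALB/c replicates 1 to 4 and 12.08, 12.19, 12.10 and 12.21 in C57BL/6N replicates 1 to 4. BALB/c replicate 1 was the nearest to the C57BL/6N corneas but still above all of them. The strains differed by 0.40 (SE 0.0718, limma adjusted p = 0.00589; exact permutation p = 0.0286). In normalized reads the level was 6284 ± 750 in BALB/c and 4324 ± 271 in C57BL/6N, 1.45-fold higher, with an interval of 1.25 to 1.68 from limma voom. The call was narrow: without any single cornea other than BALB/c replicate 1, the adjusted p lay between 0.0134 and 0.0229, and centring each cornea on its median gave 0.134 with a difference of 0.33.

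Pdcd1lg2 (ENSMUSG00000016498, chr19:29410919-29471161, plus strand), which encodes the second ligand of PD-1 and lies beside Cd274, had 1 read in all 8 libraries, in C57BL/6N replicate 2. A count of 0 allows up to 3 reads in each of the other libraries. A930007I19Rik, an antisense gene over the same stretch, had 85.9 ± 2.44 and 129 ± 16.5 normalized reads. The planned comparison of Cd274 minus Pdcd1lg2 (difference 0.40, adjusted exact permutation p = 0.0429 over 3 pairs) therefore repeats the result of Cd274. Pdcd1, the receptor of both ligands, was listed at 0 in every cornea.

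Lgals9 (ENSMUSG00000001123, chr11:78962974-78984946, minus strand) encodes galectin-9, a sugar-binding protein that silences or kills T cells carrying TIM-3. Its normalized reads were 2992, 2764, 1989 and 4014 in BALB/c replicates 1 to 4 and 450, 383, 129 and 160 in C57BL/6N replicates 1 to 4. The lowest BALB/c cornea was well above the highest C57BL/6N cornea, and within C57BL/6N the replicates 3 and 4 were the lowest. The means were 2940 ± 835 and 280 ± 160 (SD, n = 4 each), a 10.5-fold higher level in BALB/c. The strains differed by 2.53 in rlog (SE 0.26, limma adjusted p = 0.000218; exact permutation p = 0.0286), and limma voom gave a 95% interval of 6.22 to 20.5-fold. Replicates 3 and 4 of C57BL/6N were also low in keratocyte markers, and with the keratocyte marker mean as a covariate the difference was 2.38. Without BALB/c replicates 1 and 4, which held most lens and pigment transcripts, it was 2.31 with an adjusted p of 0.0133.

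The receptor of galectin-9, Havcr2 (TIM-3), was weak, with 15.1 ± 6.91 normalized reads in BALB/c and 25.7 ± 18.9 in C57BL/6N (rlog difference -0.14, adjusted p = 0.57 from limma). Among 8 genes of the galectin group 7 were tested, of which 1 was higher and 2 were lower in BALB/c. Over all genes tested these shares were 2.83% and 2.91%. The higher gene was Lgals3bp, which encodes a secreted binding partner of galectins and not a galectin, with 4975 ± 1433 against 693 ± 481 normalized reads (rlog difference 2.26, adjusted p = 0.00183). Its C57BL/6N values of 1235, 960, 297 and 279 were lowest in replicates 3 and 4, as for Lgals9, and its adjusted p was 0.014 in a robust limma fit and 0.0563 without BALB/c replicates 1 and 4. Lgals3, an abundant epithelial galectin, was lower with 10464 ± 779 against 15625 ± 1384 reads (rlog difference -0.44, adjusted p = 0.00172). Lgals7, a galectin of stratified epithelia, was lower with 82.6 ± 19.6 against 228 ± 86.1 reads (rlog difference -0.79, adjusted p = 0.00953), and its adjusted p was between 0.011 and 0.0343 without any single cornea other than C57BL/6N replicate 3.

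Cd200 (ENSMUSG00000022661, chr16:45382135-45409053, minus strand) encodes a surface protein of endothelium, neurons and other cells that calms myeloid cells through the receptor CD200R1. It had 196, 51.6, 87.5 and 196 normalized reads in BALB/c replicates 1 to 4 and 39.7, 65.9, 19 and 6.35 in C57BL/6N replicates 1 to 4. BALB/c replicate 2 fell below C57BL/6N replicate 2, so the strains overlapped. The rlog difference was 0.87 (95% interval 0.30 to 1.45) and did not pass the threshold (adjusted p = 0.0608 from limma; exact permutation p = 0.0571). In recovered counts the ratio was 4.57 with an interval of 1.37 to 15.2 and an adjusted p of 0.114 from limma voom.

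The spread of Cd200 ran beside that of marker transcripts. The 8 markers of blood and lymphatic endothelium summed to 1911, 562, 1219 and 1985 normalized reads in BALB/c and to 1508, 1733, 202 and 213 in C57BL/6N, so that within each strain the corneas high in Cd200 were also high in this sum. Most of it came from Kdr alone (1043 ± 400 in BALB/c and 833 ± 767 in C57BL/6N). The other markers of the list were weaker. BALB/c means were higher for Pecam1 (55.7 against 15.1), Cdh5 (162 against 19.6), Tek (49.7 against 6.84) and Emcn (27 against 3.04). Their ranges overlapped, with SDs in BALB/c of 45.2, 214, 61.6 and 38.4. Flt4 had 49.7 ± 29 against 4.27 ± 5.68 with no overlap, but was not called (adjusted p = 0.023 from limma). Prox1 was close (30.4 against 28.5), and Lyve1 was lower in BALB/c (1.67 against 3.53). The corneas lowest in the sum were also those low in keratocyte markers. The 6 pigment cell markers summed to 19051 and 43061 in BALB/c replicates 1 and 4 and to between 209 and 3738 in the other 6 corneas. Without BALB/c replicates 1 and 4 the rlog difference of Cd200 was 0.47 (adjusted p = 0.441 from limma). With the keratocyte marker mean as a covariate it was 0.71 and passed the threshold (adjusted p = 0.00507). The 8 markers of neurons and Schwann cells summed to 939, 146, 269 and 2285 normalized reads in BALB/c and to 285, 3156, 240 and 151 in C57BL/6N, with the highest C57BL/6N sum in replicate 2, as for Cd200. The part of endothelial, neural, lens or pigment cells in the difference was not tested. Its receptor Cd200r1 rested on 35 reads in all 8 libraries, with 3.43, 8.74, 13.2 and 3.88 normalized reads in BALB/c and 2.04, 0.999, 0 and 0 in C57BL/6N (adjusted p = 0.121).

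**Figure D2:**
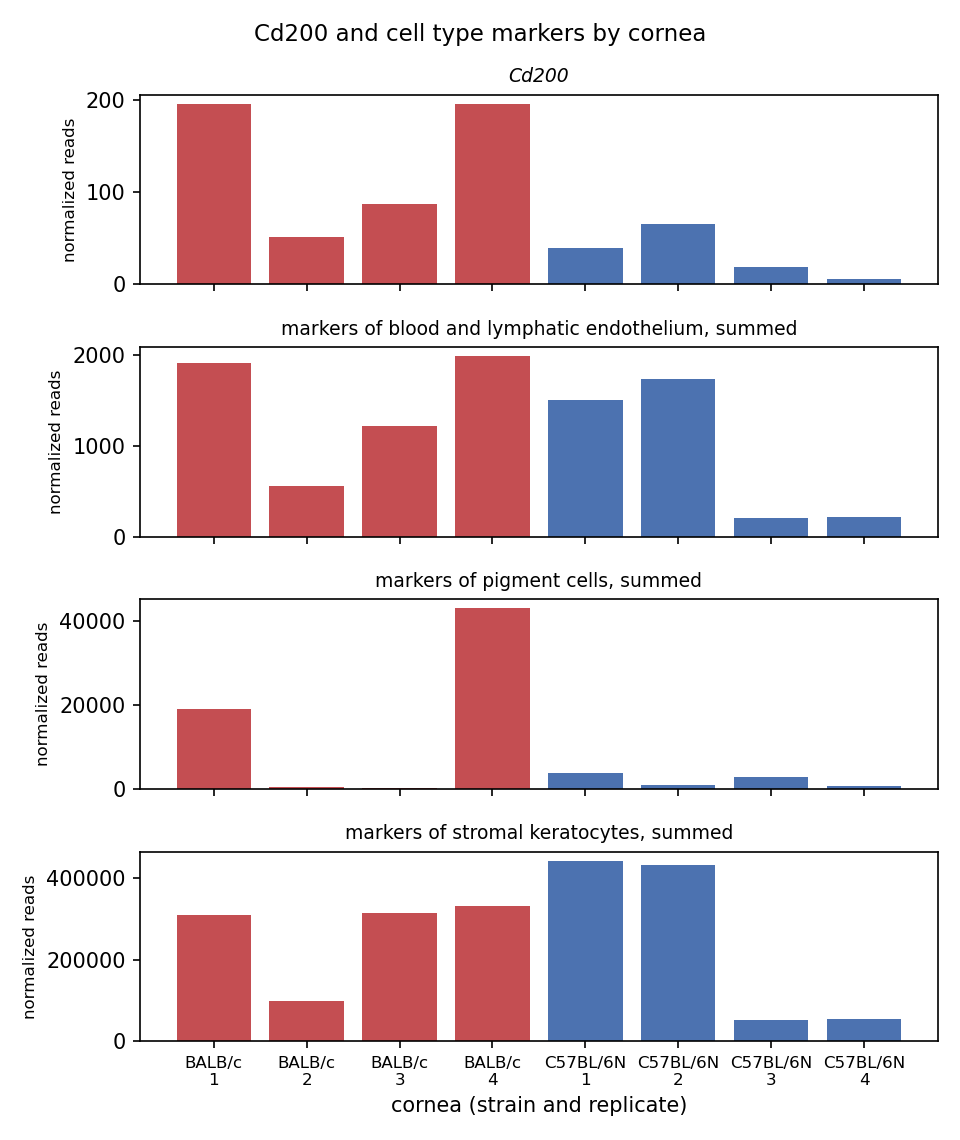
Normalized reads (y axes, linear from 0) of Cd200 and the summed reads of the markers of blood and lymphatic endothelium, pigment cells and stromal keratocytes in each cornea (x axis; BALB/c red, C57BL/6N blue). Cd200 is highest in BALB/c replicates 1 and 4, at 196 reads each, where pigment cell markers are highest too.

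Ido1 (ENSMUSG00000031551, chr8:24584136-24597009, minus strand), the interferon-inducible enzyme that opens the breakdown of tryptophan to kynurenine, had 4 reads in BALB/c replicate 4, 4 reads in C57BL/6N replicate 2 and 0 in the other corneas. It was below the minimum for testing, and a difference was not detectable at this depth. Of 10 other genes of tryptophan breakdown 7 were tested, with 0 higher and 1 lower in BALB/c, against 2.83% and 2.91% of all genes. The lower gene was Kyat3, a kynurenine aminotransferase, with 184 ± 32.9 normalized reads against 448 ± 86.4 (rlog difference -0.82, adjusted p = 0.00154 from limma). The paralogue Ido2 was listed at 0 in all corneas.

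Transcripts of T and NK cells, the counterpart of these ligands, were near 0 in both strains. Of 10 markers of T and NK cells 7 were listed at 0, among them Cd3d, Cd8a and Prf1, and the list summed to between 0 and 9.69 normalized reads in BALB/c and between 7.99 and 19.4 in C57BL/6N. Of 12 markers of macrophages and dendritic cells 11 were tested and 0 called by limma, also at an adjusted p of 0.05, and their sum ran from 3089 to 3608 reads in BALB/c and from 2930 to 3364 in C57BL/6N. Most of this sum came from Cd68 (1319 ± 54.7 against 1089 ± 141) and Itgam (1383 ± 227 against 1654 ± 317), and the median rlog difference of the list was 0.18. Among its weaker genes, Csf1r had 264 ± 136 against 158 ± 141, Cx3cr1 109 ± 47 against 46.4 ± 39.4, Ptprc 39.5 ± 23.1 against 23.8 ± 17.2 and Itgax 18.5 ± 5.62 against 5.95 ± 6.25 normalized reads, with higher BALB/c means and overlapping ranges. Fcgr1 (16.6 ± 14.5 against 5.3 ± 6.27) did likewise. Means were closer for Adgre1 (25.1 ± 16.8 against 24.3 ± 25.5), Mrc1 (78.2 ± 57.6 against 70.5 ± 74) and Cd163 (31 ± 31.9 against 25.9 ± 28.5). Cd14 was lower in BALB/c (72.6 ± 17.1 against 80.8 ± 26.1). Of 24 further receptors and ligands of T cell costimulation and checkpoints 18 were tested, with a median rlog difference of 0.00082. In BALB/c 1 was higher and 0 were lower, against 2.83% and 2.91% of all genes tested. The higher gene was Tnfrsf14 (HVEM), the epithelial partner of the inhibitory receptor BTLA, with 486 ± 61.8 against 256 ± 46.8 normalized reads (rlog difference 0.61, adjusted p = 0.00399). Its adjusted p rose above 0.01, to at most 0.0175, without BALB/c replicate 1, 2 or 4 or C57BL/6N replicate 2 or 4, each left out alone.

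Among 23 other factors of ocular immune privilege 19 were tested, of which 3 were higher and 1 was lower in BALB/c. Over all genes tested these shares were 2.83% and 2.91%. Tgfb1, a cytokine that dampens T cells, had 3437 ± 349 normalized reads in BALB/c and 1933 ± 272 in C57BL/6N. Cd47, the signal that protects cells from macrophages, had 3563 ± 207 and 2152 ± 276. H2-T23, the class Ib molecule Qa-1 that engages inhibitory receptors of NK cells, had 1619 ± 195 and 832 ± 132, but belongs to a family of near-identical genes whose reads counting can split. Nt5e (CD73), which makes the immunosuppressive adenosine, went the other way: it had 6.86, 1.75, 4.71 and 18.4 normalized reads in BALB/c and 313, 475, 234 and 267 in C57BL/6N, a 40.6-fold higher level in C57BL/6N. Its rlog difference of -2.45 (adjusted p = 1.53e-05 from limma) was similar in size to those of Tnfsf10 and Lgals9 and opposite in sign. Genes for the neuropeptides Vip, Calca and Sst and for the cytokine Il10 were listed at 0 in every cornea.

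In the signal from interferons to these genes, 20 genes were examined and 18 tested. Of those tested, 4 were higher and 0 were lower in BALB/c, against 2.83% and 2.91% of all genes. Irf7, the interferon-induced master factor of type I interferon genes, had 8761, 8488, 6814 and 9588 normalized reads in BALB/c and 1326, 1211, 1514 and 1559 in C57BL/6N. The strains were widely apart, and the ratio of the means was 6 (rlog difference 1.93, adjusted p = 1.31e-06 from limma). Irf9, the DNA-binding part of the factor that recognizes interferon-stimulated response elements, was 4.5-fold higher in BALB/c, and its partner Stat2 was 2.99-fold higher. Socs1, a feedback inhibitor of this signal, was 2.48-fold higher, but its adjusted p exceeded 0.01 without any single cornea other than C57BL/6N replicate 2, reaching 0.0261. The stretches marked above for Tnfsf10, Lgals9 and Cd274 are letter matches to forms of this element, for Tnfsf10 and Cd274 the shifted form only. Binding was not measured, and a link of Irf9 or Stat2 to these 3 genes was not tested. The receptor chains Ifnar1, Ifnar2, Ifngr1 and Ifngr2 and the kinases Jak1, Jak2 and Tyk2 were tested and not called. Ifng and Ifnb1 were listed at 0 in all corneas. The median rlog difference of the list was 0.026.

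**Figure D3:**
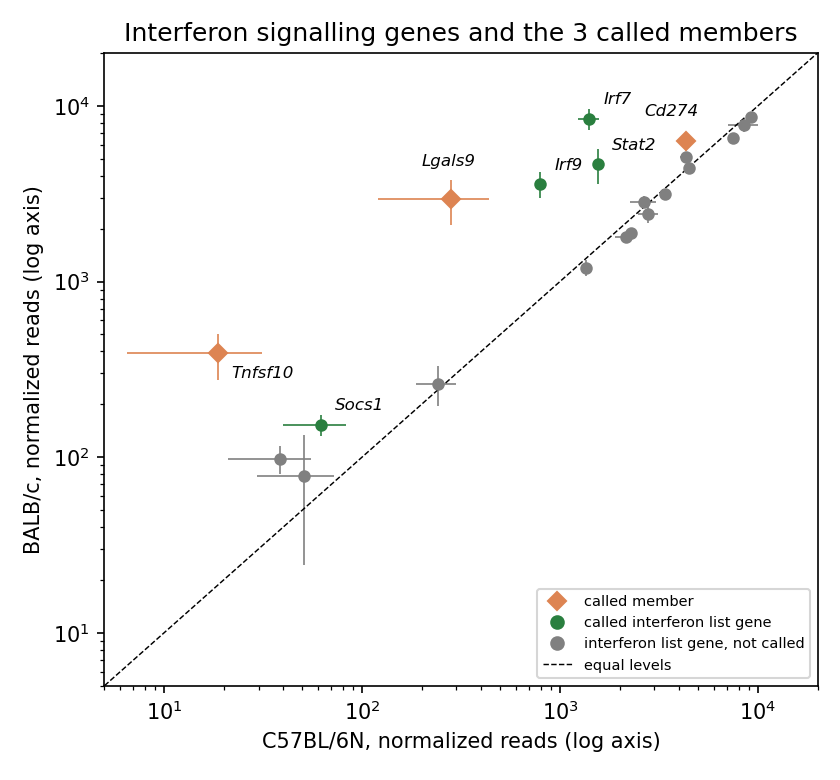
Mean normalized reads in C57BL/6N (x axis, logarithmic) against BALB/c corneas (y axis, logarithmic) of the tested interferon signalling genes (circles) and of Tnfsf10, Lgals9 and Cd274 (diamonds), with bars for the SD over 4 corneas. The 4 called signalling genes lie above the line of equal levels, whereas most other genes of the list lie close to it.

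Over the 7 lists, 92 pathway genes were tested and 14 were called, 9 higher and 5 lower in BALB/c. This is 15.2% of those tested, against 5.74% of all genes. The lists were chosen with results of these data known, and nothing particular to them can be read from these shares.

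**Figure D4:**
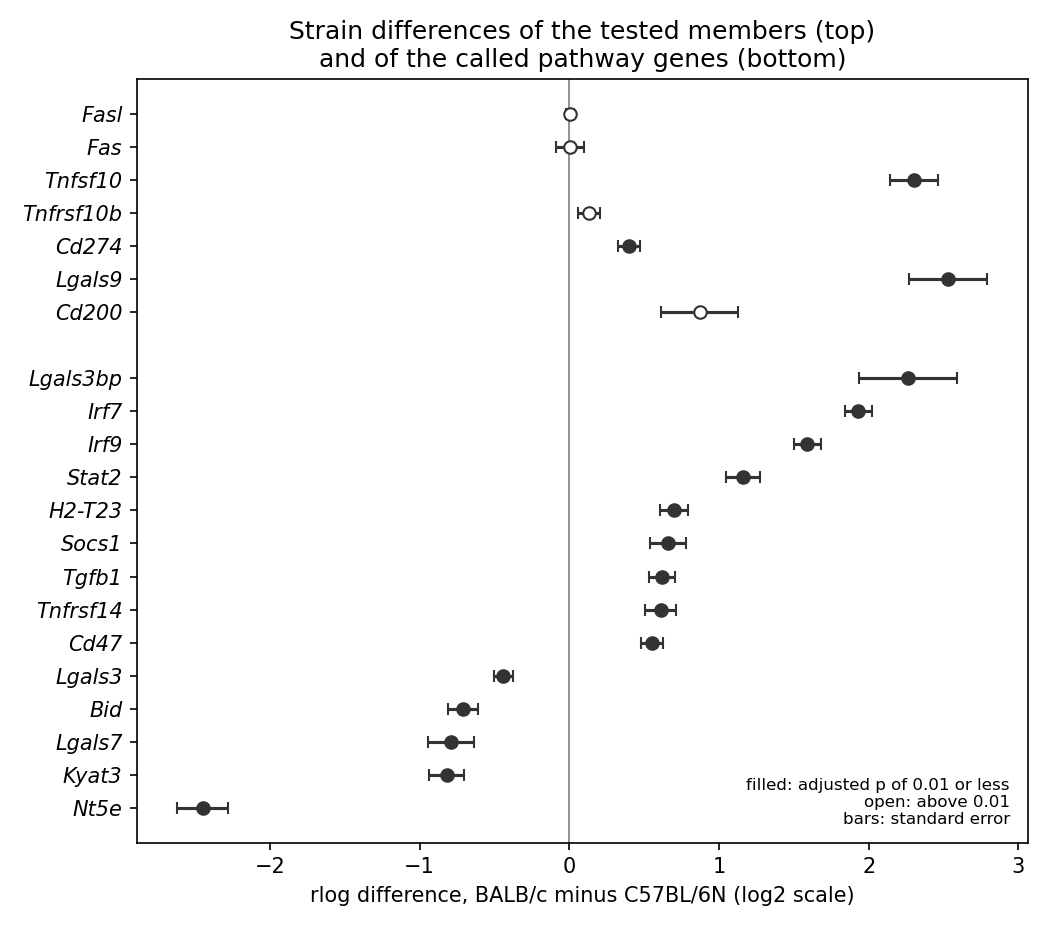
Difference in rlog value between the strains (x axis, BALB/c minus C57BL/6N, log2 scale) of the 7 tested genes of interest (top) and the 14 called pathway genes (bottom), with bars for the standard error and filled points for an adjusted p of 0.01 or less. Lgals9 and Tnfsf10 lie at 2.53 and 2.30, and Nt5e lies at -2.45.

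The nearest tested protein-coding genes on either side of the 3 called genes were not called. Beside Tnfsf10 these were Nceh1 (rlog difference 0.49, adjusted p = 0.47 from limma) and Fndc3b (0.22, adjusted p = 0.638). Beside Lgals9 were Lyrm9 (-0.30, adjusted p = 0.0385) and Ksr1 (0.16, adjusted p = 0.143). Plgrkt, which lies 65 bases from Cd274 and overlaps the stretch printed for it, had a difference of 0.24 (adjusted p = 0.0275), and Ric1 on the other side had -0.082 (adjusted p = 0.346). No other annotated gene overlapped any of these 3.

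Within the strains, Lgals9 varied from cornea to cornea most like Slfn5, an interferon-inducible Schlafen gene, among 12690 coding genes whose rlog averaged 5 or more (Pearson r of the deviations from the strain means 0.985 over 8 corneas). Slfn5 was itself called, with a difference of 1.95 (adjusted p = 0.00161 from limma). Next were Akna (r = 0.979) and Tmem80 (r = 0.975), which were not called (adjusted p = 0.401 and 0.211 from limma). For Tnfsf10 the most similar genes were Mrpl32 (0.966), Saal1 (0.956) and Cers5 (0.948), and for Cd274 Adprhl2 (0.977), Thumpd3 (0.970) and Usp37 (0.962). Among the genes most similar to Tnfsf10 and Cd274 only Cers5 was called (difference 0.33, adjusted p = 0.00618 from limma). The r values are the highest of many correlations over few corneas that share library depth and composition, and are given as a description.

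The study recalibrated its DESeq2 p-values with another tool (fdrtool) and still reported differing genes at an adjusted p of 0.01. The empirical null tried here is a rescaling of the same kind on other statistics: it divides the limma statistics by a spread taken from their quartiles. Of the alternatives tried, this scaling alone removed all calls. It was not run on the DESeq2 statistics of the study, so it cannot show how the calls of the study would fare. When the limma statistics were scaled to an empirical null with a standard deviation of 1.67, 0 of the 25402 genes passed, although 1730 had an unadjusted p under 0.05. From these scaled statistics the unadjusted p was 0.00144 for Tnfsf10, 0.00521 for Lgals9 and 0.0294 for Cd274. The adjusted values were 0.245, 0.36 and 0.619.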

How the data were processed

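Total RNA of 4 BALB/c and 4 C57BL/6N corneas was sequenced from strand-specific libraries. The authors trimmed reads with cutadapt, aligned them with TopHat2 2.1.1 to strain pseudo-genomes of GRCm38, counted reads per Ensembl gene with HTSeq 0.7.1, and deposited rlog values (DESeq2 1.30), a log2 scale in place of read counts. All columns were mapped by the sample labels, and 0 were left unused.

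BALB/c and C57BL/6N corneas were set against each other in limma 3.58.1 under R 4.3.3 (eBayes with an intensity trend), keeping genes whose rlog averaged 0 or more. Single values were compared by exact permutation tests (scipy 1.17.1). Read counts were recovered by inversion of the rlog values, with constants fitted to the table itself, and compared with limma voom. Annotation came from a GRCm38 gene set, which named 31278 of 31314 genes not at 0. In simulated corneas all counts of left-out genes were recovered, and 66 of 66 genes changed 4-fold, 57 of 67 changed 2-fold and 11 of 67 changed 1.5-fold were called, with 3 of 25244 unchanged genes. The simulation used the model of the inversion, the same variance setting (dispersion) for every gene and no difference in tissue composition. Its shares of called genes therefore do not carry over to genes that varied more between corneas, such as Cd200.

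Named were all 9 genes, called genes of the lists, direct partners, nearest neighbours and the most similar genes. The 9 genes and all lists were chosen with earlier results of these data known, and 1 gene of the lists is not reported here. The count recovery and the fits without groups of corneas were chosen after seeing the data. Alternatives were the variance trend, a robust fit, 2 filters, median centring, quantile normalization, a replicate block, an empirical null, each cornea left out, an adjusted p of 0.05 and a keratocyte covariate. No 2 corneas of a strain agreed within sampling noise (chi-square per gene at least 12.7).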

Additional observations from a re-analysis of the deposited data

Results flagged for a closer look

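In 6 of 62 groups of 4 corneas, the highest value stood apart from the other 3 by most of the range of its group. Normally distributed values would do so in about 1 in 20 groups. For 5 of them this came from a few reads in a single cornea. There the gap is near the whole range by construction, so the 1 in 20 does not apply and the count shows no excess. The gap as a share of the range was 0.997 for Fasl in BALB/c replicate 3 (5 reads) and 0.992 in C57BL/6N replicate 4 (4 reads). It was 0.997 for Ido1 in BALB/c replicate 4 (4 reads) and 0.993 in C57BL/6N replicate 2 (4 reads), and 0.885 for Pdcd1lg2 in C57BL/6N replicate 2 (1 read). For Tnfrsf22 in BALB/c replicate 4 it was 0.854, with an rlog value of 7.47 against 7.22 in the next cornea, and the cornea was also the highest in pigment cell markers.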

How the results depend on the processing

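The 17 called genes among the 9 genes of interest and the pathway lists kept their direction in all 357 comparisons with an alternative. They stayed past the threshold in 277. The variance trend, robust fit, filters, empirical null, replicate block and 0.05 threshold leave the difference itself unchanged, so direction could not change there. The 0.05 threshold could not remove a call either. All genes called (1458) became 958 with median centring, 0 with an empirical null, 2438 with the keratocyte covariate, 2842 at an adjusted p of 0.05, 447 without BALB/c corneas 1 and 4, 852 without BALB/c cornea 2 and C57BL/6N corneas 3 and 4, and 953 (without C57BL/6N replicate 4) to 1163 with each cornea left out. Called pathway genes (14) became 0, 22, 4 and 8 with the empirical null, the covariate and the 2 sets of corneas left out, and 11 to 13 with each cornea left out. Of the 9 genes of interest 0 were called with the empirical null, 1 (Tnfsf10) without BALB/c corneas 1 and 4, and 2 or 3 with each cornea left out, where Tnfsf10 (2.17 to 2.41) and Lgals9 (2.35 to 2.72) kept their calls. The cause of these changes was not tested, apart from the smaller number of corneas.

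Same-numbered corneas did not consistently deviate together (r = 0.3055, -0.5304, -0.2026 and -0.4540). These few correlations cannot show whether same-numbered corneas shared a preparation step. The main fit did not pair the samples. With the replicate block 554 genes, 5 pathway genes and 2 of the 9 genes were called, without Cd274 (adjusted p = 0.0166). In the exact paired test, whose smallest p is 0.125, the balance of Tnfsf10 minus Tnfrsf10b (2.17) and of Cd274 minus Pdcd1lg2 (0.40) was not past 0.05. With each cornea left out these balances ran from 2.05 to 2.27 and from 0.36 to 0.47, and Tnfsf10 minus Tnfrsf10b was 2.17 with an adjusted p of 0.0571 under quantile normalization, where Pdcd1lg2 gave no value.

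Differences near 0 changed sign. Fasl minus Fas was 0.027 under quantile normalization and -0.071 to 0.061 with each cornea left out. Under median centring the difference was -0.072 for Fasl, -0.069 for Fas, -0.055 for Fadd and -0.062 for Cflar, and under quantile normalization -0.026 for Fas and -0.023 for Fadd. It was -0.19 for Fasl in limma voom and 0.017 for Casp8 with the covariate. Without BALB/c corneas 1 and 4 it was -0.045 for Fas, 0.069 for Casp8 and -0.01 for Cflar, and without the 3 corneas low in keratocyte markers -0.0087 for Fas, -0.078 for Fadd and 0.039 for Casp8. With each cornea left out it ran from -0.02 to 0.022 for Fasl, -0.051 to 0.051 for Fas, -0.039 to 0.053 for Fadd, -0.047 to 0.029 for Casp8, -0.012 to 0.045 for Cflar and -0.025 to 0.16 for Tnfrsf22.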
